A study of Arabidopsis thaliana with 21 samples.

Results

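The PLETHORA and AINTEGUMENTA genes form a small subfamily of the plant AP2 transcription factors, and 7 of them were followed here across 6 Arabidopsis thaliana reporter lines whose root cells were sorted by fluorescence. The members were taken by locus code from a list and not by their values: PLT1 (AT3G20840), PLT2 (AT1G51190), PLT3 (AT5G10510, also AIL6), BBM (AT5G17430, also PLT4), PLT5 (AT5G57390, also AIL5), PLT7 (AT5G65510, also AIL7) and ANT (AT4G37750). They are 7 of the 33602 genes counted in 21 libraries, and all 7 were among the 26074 genes that passed the filter on low counts. PLT7 reached the filter's cutoff of 0.332 CPM (counts scaled to library size) in 8 libraries and ANT in 11, while PLT3 reached it in all 21.

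The study followed the protophloem sieve element, the file of cells that conducts sugars into the root tip and loses its nucleus as it matures. All groups were seedlings 5 days old, grown alike, from which part of the root was digested for 1 h and fluorescent protoplasts were sorted. The PEAR1 line carried pPEAR1::3xYFP (n = 4). The PEAR1-DBOX line carried pPEAR1::DBOX-3xYFP (n = 2), and the CVP2-DBOX line pCVP2::DBOX-3YFP (n = 4); the DBOX, or destruction box, marks a protein for breakdown during the cell cycle. The line labelled NAC57 carried pNAC57::2GFP with pCALS7::H2B-RFP (n = 3). The CALS7 line carried a reporter whose label reads pCASL7::H2B-YFP with pS32::erRFP (n = 4), and the NAC73 line pNAC73::H2B-YFP with pS32::erRFP (n = 4). Each promoter marks all cells in which it is active in the tissue taken, and the labels do not say which colour set the gate in the lines with both. The promoter, the gate, the transgenic line and the handling of each line cannot be told apart, and the labels do not say whether the libraries of a line came from separate sorts, so the p-values below measure the spread between these libraries.

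PLETHORA proteins are known as regulators of the root tip, where they form a gradient: high levels maintain the stem cell niche, intermediate levels go with dividing cells, and low levels allow cells to elongate and differentiate. Auxin and the secreted RGF peptides, which are sulfated by the enzyme TPST, are known to raise PLETHORA protein in the root. PLT1, PLT2, PLT3 and BBM act redundantly in the root meristem, PLT3, PLT5 and PLT7 in the initiation and spacing of lateral organs, and ANT in organ growth and the vascular cambium. BBM also induces embryos when it is expressed at a high level.

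All members share a pair of AP2 domains, so it was checked whether a read of 50 bases could come from more than 1 of them. The longest identical stretches between the coding sequences of members are printed because they bear on that, read on the coding strand of RefSeq's TAIR10.1 assembly, 5′ to 3′, for the 3 pairs of genes with the longest ones.
PLT1 and PLT2 (chromosomes 3 and 1): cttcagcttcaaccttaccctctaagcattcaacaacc
PLT3 and PLT7 (both chromosome 5): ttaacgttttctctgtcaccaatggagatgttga
BBM and ANT (chromosomes 5 and 4): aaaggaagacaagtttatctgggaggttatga
These stretches are 38, 34 and 32 bases long, shorter than a read, and every 50-base window of the transcripts of PLT1, PLT2, BBM, PLT5, PLT7 and ANT was found nowhere else in the genome or in other transcripts. PLT3 was the exception, with 87.4% of its windows unique, because its 3′ end overlaps RBK1 (AT5G10520), a protein kinase gene on the opposite strand. The strand setting of the authors' counting is not given in the sources used here, so reads from that overlap cannot be assigned to either gene. RBK1 was at 4.33 to 10.0 CPM in the PEAR1 line, at 10.5 and 14.9 CPM in the PEAR1-DBOX libraries and at 0.490 to 0.749 CPM in the CVP2-DBOX line. It was at 0 to 0.723 CPM in the line labelled NAC57, at 60.1 to 96.5 CPM in the CALS7 line and at 135 to 271 CPM in the NAC73 line. The values of PLT3 in the CALS7 and NAC73 lines therefore stand beside a strongly expressed neighbour, and the share of RBK1 reads in them was not tested.

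The libraries held 23513921 to 36198012 counted reads. Of the genes whose promoters drive the reporters, CVP2 was highest in the CVP2-DBOX line (655 ± 53.4 CPM) and NAC073 in the NAC73 line (503 ± 159), while CALS7 was at 3886 ± 566 in the CALS7 line and at 4204 ± 2214 in the NAC73 line (SD, n = 4 each). NAC057 went against its label, with 21.1 ± 9.62 CPM (SD, n = 3) in the line labelled NAC57 and 434 ± 28.7 (SD, n = 4) in the CALS7 line. CALS7, whose promoter also drives a reporter in the line labelled NAC57, was at 174 ± 92.9 CPM there (SD, n = 3). Summed late sieve element markers (8 genes) ran from 537 to 1289 CPM over the libraries of the PEAR1, PEAR1-DBOX and CVP2-DBOX lines, from 1818 to 2256 in the line labelled NAC57, from 9381 to 12730 in the CALS7 line and from 15094 to 35160 in the NAC73 line. In the NAC73 line, 16916 to 19644 genes had a read, fewer than the 20416 to 30620 of the other lines.

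PLT1, PLT2, PLT3, BBM and PLT5 were higher in every library of the PEAR1, PEAR1-DBOX and CVP2-DBOX lines than in any CALS7 library, while PLT7 and ANT were low in most lines. PLT1, which with PLT2 specifies the root stem cell niche, was at 12.3, 10.4, 12.5 and 13.4 CPM in the 4 PEAR1 libraries, at 58.8 and 35.9 in the PEAR1-DBOX libraries, at 6.96, 12.1, 8.84 and 8.35 in the CVP2-DBOX libraries, at 0.728, 1.97 and 3.23 in the libraries labelled NAC57, at 1.81, 0, 1.13 and 0.0294 in the CALS7 libraries and at 13.4, 9.83, 0 and 10.2 in the NAC73 libraries. Both PEAR1-DBOX libraries were above all others, and the NAC73 line ran from no read to the level of the PEAR1 line. PLT2 was at 25.7, 18.7, 17.3 and 23.9 CPM in the PEAR1 line, 80.0 and 49.2 in the PEAR1-DBOX line, 33.9, 28.8, 28.0 and 34.6 in the CVP2-DBOX line, 3.01, 5.96 and 3.39 in the line labelled NAC57, 1.30, 2.63, 3.40 and 0 in the CALS7 line and 9.96, 1.38, 0 and 10.8 in the NAC73 line. Its libraries of the PEAR1, PEAR1-DBOX and CVP2-DBOX lines lay above every library of the other 3 lines.

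PLT3 was detected in every library. It was at 93.6, 69.5, 56.8 and 74.0 CPM in the PEAR1 line, 195 and 102 in the PEAR1-DBOX line, 138, 142, 114 and 106 in the CVP2-DBOX line, 61.6, 52.4 and 58.3 in the line labelled NAC57, 43.3, 32.9, 22.9 and 27.2 in the CALS7 line and 72.8, 20.6, 17.6 and 78.6 in the NAC73 line. The CVP2-DBOX libraries were above all PEAR1 libraries and the CALS7 libraries below them, while the NAC73 libraries fell into a high and a low pair. BBM was at 30.1, 20.8, 16.9 and 25.0 CPM in the PEAR1 line, 87.6 and 47.6 in the PEAR1-DBOX line, 37.5, 36.4, 39.5 and 38.5 in the CVP2-DBOX line, 4.96, 2.28 and 2.53 in the line labelled NAC57, 0, 0, 0.523 and 0 in the CALS7 line and 1.85, 0, 0 and 12.8 in the NAC73 line. In 3 of the 4 CALS7 libraries there was no BBM read, and the CVP2-DBOX libraries were within a narrow band.

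PLT5, known from lateral root formation and germination, was at 19.1, 7.39, 7.18 and 7.03 CPM in the PEAR1 line, 12.3 and 9.32 in the PEAR1-DBOX line, 6.96, 6.93, 6.68 and 2.86 in the CVP2-DBOX line, 0.554, 0.781 and 1.47 in the line labelled NAC57, 0, 0.544, 0.930 and 0.0294 in the CALS7 line and 2.21, 0.801, 0 and 5.48 in the NAC73 line. PEAR1 replicate 1 stood above all other libraries, and CVP2-DBOX replicate 4 below the other libraries of its line. PLT7 did not exceed 1.27 CPM in any library: it was at 1.04, 0.543, 1.27 and 0.228 in the PEAR1 line, 0 and 0.0293 in the PEAR1-DBOX line, 0, 0.401, 0.486 and 0.799 in the CVP2-DBOX line and 0, 0, 0.349 and 0.589 in the CALS7 line, and had no read in the line labelled NAC57 or in the NAC73 line. ANT was at 2.71, 2.76, 2.58 and 1.82 CPM in the PEAR1 line, 9.54 and 1.88 in the PEAR1-DBOX line, 0.0516, 0.0267, 3.18 and 2.04 in the CVP2-DBOX line, 1.84, 2.78 and 0.111 in the line labelled NAC57 and 0.286, 0.209, 0.0291 and 0.589 in the CALS7 line, with no read in the NAC73 line. ANT was even across the PEAR1 libraries and split within the CVP2-DBOX line, where replicates 1 and 2 were near 0. The lowest level that 3 reads would give over all libraries of a line was 0.0466 CPM in the NAC73 line and 0.0302 in the line labelled NAC57, which covers counting error only. AT1G72570, a gene of the same subfamily that is not among the 7, did not exceed 0.821 CPM in any library and had no read in those 2 lines.

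**Figure D1:**
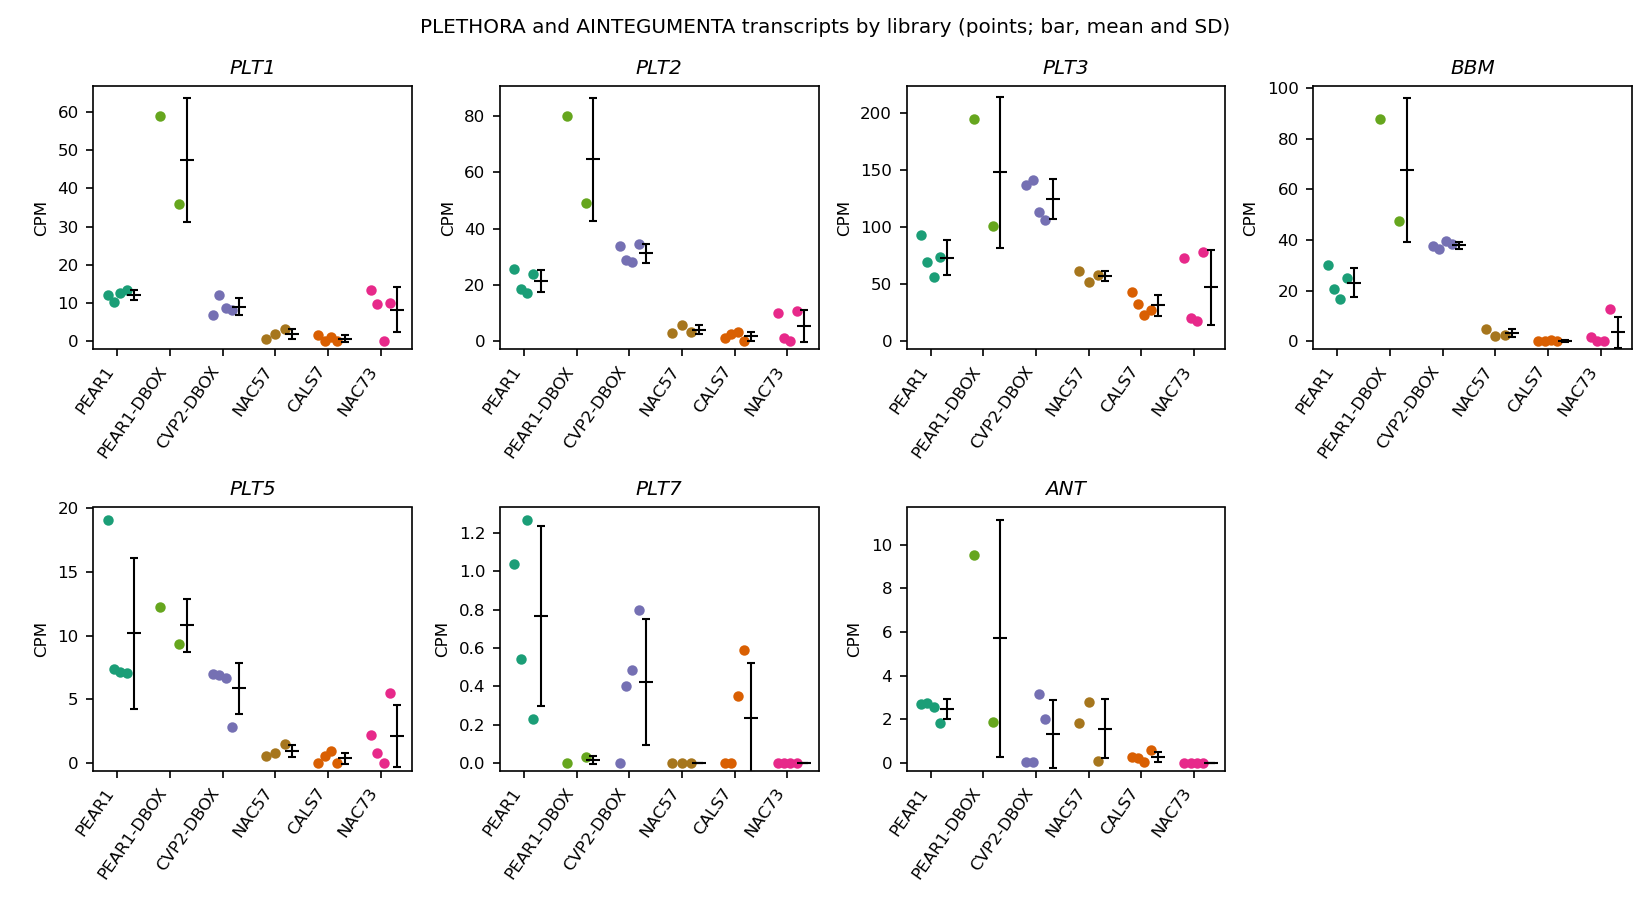
Level of each of the 7 genes in CPM (y axis, linear, its own range in each panel) for every library, grouped by line; coloured points are libraries and black bars the mean and SD. The CALS7 libraries lie below the CVP2-DBOX libraries for PLT1, PLT2, PLT3, BBM and PLT5, and the NAC73 libraries spread from 17.6 to 78.6 CPM for PLT3.

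In bulk RNA from sorted cells, fewer cells of a type and less RNA per cell cannot be told apart. Ranked by mean level, PLT1, PLT2, PLT3, BBM, PLT5 and ANT were all highest in the PEAR1-DBOX line, PLT7 was highest in the PEAR1 line, and PLT1, PLT2, PLT3, BBM and PLT5 were lowest in the CALS7 line. For ANT the first place rests on PEAR1-DBOX replicate 3: without it the log2 difference from the PEAR1 line was −0.39 in place of 1.21. For PLT5 the difference from the PEAR1 line was 0.09 with TMM scaling and −0.016 with RLE scaling, another way of scaling libraries. PLT3 was higher in the CVP2-DBOX line than in the PEAR1-DBOX line without PEAR1-DBOX replicate 3, by 0.30, and lower in the NAC73 line than in the CALS7 line with limma voom, where the log2 difference was −0.22 in place of 0.59. Of the 35 pairs of neighbouring lines in these orders 2 passed the test, both without overlap between their libraries. They were BBM, higher in the line labelled NAC57 than in the CALS7 line (3.26 ± 1.48 against 0.131 ± 0.261 CPM, SD; adjusted p = 0.0142 by edgeR's quasi-likelihood test), and ANT, higher in the CALS7 line than in the NAC73 line (0.278 ± 0.233 CPM against no read; adjusted p = 0.0465 by the same test). Between the same lines 49.7% and 35.9% of all genes tested passed.

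Per kilobase of exon, PLT3 was the most abundant member in each line, and the shares of the genes varied between lines. PLT3 made up 43.9% of the summed level of the 7 genes in the PEAR1 line (42.3% to 46.1% over libraries), with BBM at 18.5%, PLT2 at 17.7%, PLT1 at 9.72% and PLT5 at 7.22%. In the PEAR1-DBOX line PLT3 made up 35.7%, BBM 22.0%, PLT2 21.9% and PLT1 15.2%. In the CVP2-DBOX line the shares were 51.7% for PLT3 (47.4% to 55.5%), 21.3% for BBM, 18.0% for PLT2 and 4.91% for PLT1. PLT3 thus contributed less than the other 6 together in both lines with the PEAR1 promoter.

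In the lines with later sieve element markers PLT3 dominated the family. It made up 78.1% (73.6% to 80.3%) in the line labelled NAC57, where RBK1 was at or below 0.723 CPM, 86.1% (72.7% to 93.6%) in the CALS7 line and 70.9% (56.7% to 100%) in the NAC73 line. The ranges of the line labelled NAC57, the CALS7 line and the NAC73 line lay above that of the CVP2-DBOX line. Summed over the 7 genes, the level was 54.2 ± 11.2 CPM per kb in the PEAR1 line, 133 ± 53.5 in the PEAR1-DBOX line, 77.9 ± 5.04 in the CVP2-DBOX line, 23.8 ± 0.916 in the line labelled NAC57, 11.8 ± 2.72 in the CALS7 line and 23.8 ± 17.8 in the NAC73 line (SD over libraries). In the NAC73 line PLT1 reached 35.3% of the family in 1 library and was absent in another.

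**Figure D2:**
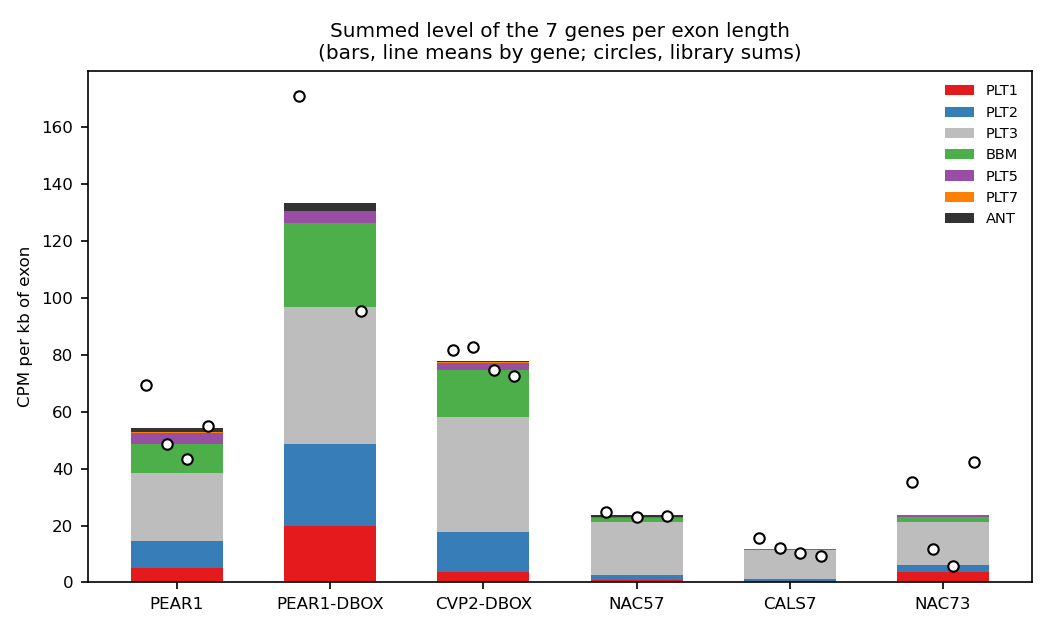
Summed level of the 7 genes in CPM per kb of exon (y axis) for the 6 lines; stacked bars are line means by gene and open circles the sums of single libraries. The mean sum is 133 in the PEAR1-DBOX line and 11.8 in the CALS7 line, where nearly all of the bar is PLT3.

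The comparison of the CALS7 line with the CVP2-DBOX line sets cells with high late sieve element markers against cells with low ones. PLT1, PLT2, PLT3, BBM and PLT5 were all lower in the CALS7 line, with no overlap between the libraries of the lines. The share of all genes without overlap between the libraries of 2 lines was not counted, here or in the comparisons below. PLT3 fell by 1.98 ± 0.39 on the log2 scale (SE; adjusted p = 0.000446, edgeR's quasi-likelihood test with Benjamini-Hochberg adjustment). PLT1 fell by 3.59 ± 1.13 (adjusted p = 0.0161, edgeR), PLT2 by 4.10 ± 1.07 (0.00469) and PLT5 by 3.95 ± 1.14 (0.00898). BBM fell by 8.06 ± 1.51 (adjusted p = 0.000299, edgeR), a value that rests on the reads of CALS7 replicate 3, since the other CALS7 libraries held none. ANT and PLT7, at or below 3.18 and 0.799 CPM in these lines, did not pass (adjusted p = 0.179 and 0.689, edgeR), with overlapping libraries.

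These 5 lower calls among 7 members stand beside 40.6% of all genes tested called in either direction and 23.7% called lower. The median log2 difference was −3.59 over the 7 members and 0.11 over all genes tested. All 5 calls held with another scaling, with no filter, with voom and with each library left out in turn, and 4 held with DESeq2, which gave no adjusted p for BBM. RBK1 moved the other way, higher in the CALS7 line by 6.99 (log2, adjusted p = 5.45e-08, edgeR). What reads of the overlap add to or take from the PLT3 difference was not tested. Whether the 5 genes fell by different amounts was not tested.

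Genes linked to the family are given as values for the same comparison, and the share called of the RGF list was near that of all genes. Of 9 RGF peptide genes 8 were tested, and 3 were lower in the CALS7 line and none higher, beside 40.6% of all genes called in either direction and 23.7% lower: RGF4 fell by 4.71 ± 0.68, RGF1 by 2.74 ± 0.84 and RGF5 by 1.18 ± 0.42 (log2, SE). The RGF list had a median log2 difference of −1.55, against 0.11 for all genes. TPST fell by 0.49 ± 0.17. Of 2 histone acetyltransferase genes GCN5, which is needed for normal PLETHORA expression, fell by 2.63 ± 0.37.

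Among 8 tested growth regulators tied to ANT or the PLETHORA genes, 3 fell and 1 rose, beside the same 40.6% of all genes. The D-type cyclins CYCD3;2 and CYCD3;3 fell by 2.55 ± 0.48 and 5.47 ± 0.92. The boundary factor HAN fell by 3.70 ± 0.65. ARGOS, known to act upstream of ANT in organ growth, rose from 1.25 to 62.5 CPM, by 5.64 ± 0.48. Each of the list members named for this comparison passed edgeR's test at an adjusted p of 0.05.

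Marker lists of other cell types and states differed in this comparison too. Of 9 stem cell niche genes 3 were lower in the CALS7 line and none higher, beside 40.6% of all genes called in either direction: SHR, which patterns the niche, fell by 4.90 ± 1.02, BRAVO, which holds the quiescent centre back from division, by 4.34 ± 1.15, and AGL42 by 1.99 ± 0.51. The summed level of the niche list ran from 51.7 to 91.7 CPM in the CVP2-DBOX libraries and from 11.1 to 15.8 in the CALS7 libraries. Each niche gene had a read in both lines, but 1 of the 9 was at 0 in replicate 1 of each. All 11 G2 and M phase genes were lower in the CALS7 line, with summed levels of 3145 to 4448 against 40.3 to 84.7 CPM, and all 8 late sieve element genes were higher. Of 12 early protophloem genes 7 were lower and 1 higher, with sums of 3854 to 4542 in the CVP2-DBOX libraries and 3118 to 3485 CPM in the CALS7 libraries. Of 8 epidermis and root hair genes 4 were higher in the CALS7 line and none lower, with sums of 2.35 to 8.69 CPM in the CVP2-DBOX libraries and 2.29 to 158 in the CALS7 libraries. Of 8 xylem genes 3 were higher and none lower, with sums of 5.67 to 11.4 against 14.0 to 38.3 CPM. Of 6 companion cell genes 1 was higher and none lower, with sums of 88.4 to 124 against 997 to 1415 CPM. Of 6 procambium genes tested 2 were higher and none lower, with sums of 82.0 to 104 against 152 to 204 CPM. No root cap, pericycle or endodermis gene passed edgeR's test. The 4 root cap genes summed to 3.22 to 9.33 CPM in the CVP2-DBOX and 13.6 to 51.9 in the CALS7 libraries. Their median log2 difference was 2.52, against 0.11 for all genes. DESeq2 called 1 of the 4 and voom 2, and neither tool called a pericycle or endodermis gene. Among all genes DESeq2 called 5888 of 28120 higher and 5866 lower, and voom 5330 of 26074 higher and 7471 lower. The part of these differences in the values of the 7 members was not tested.

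**Figure D3:**
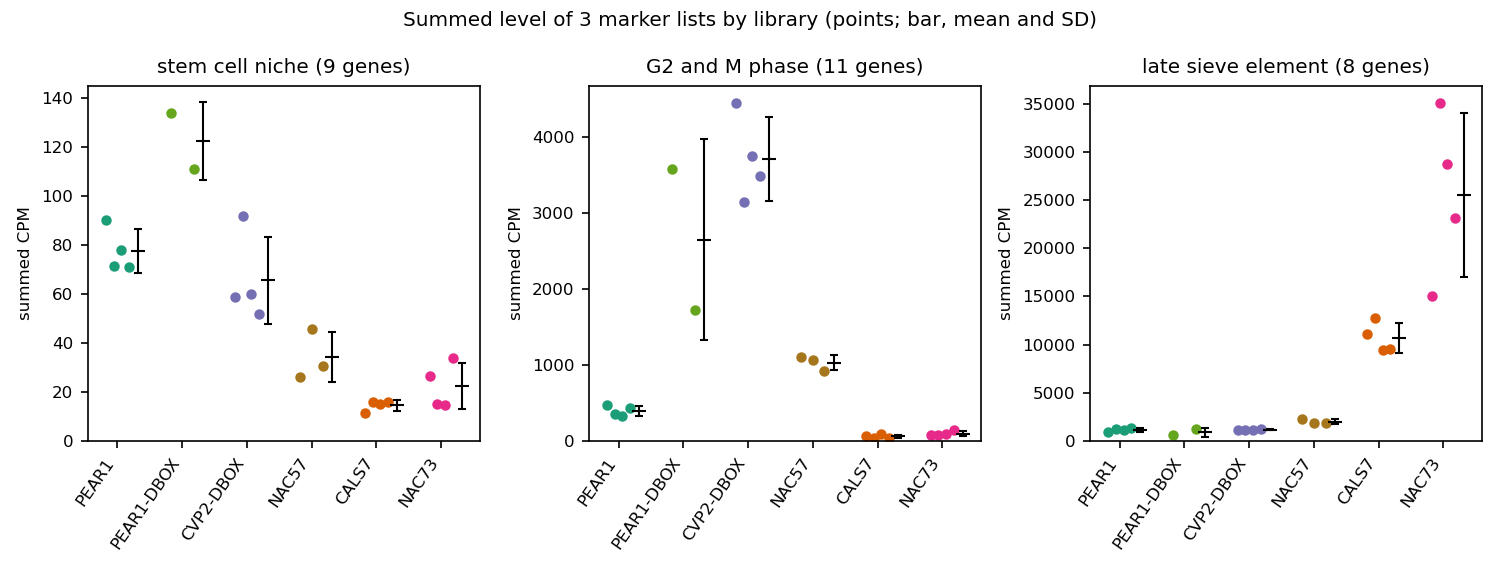
Summed CPM (y axis, linear, its own range in each panel) of the stem cell niche, G2 and M phase and late sieve element lists for every library by line; points are libraries and black bars the mean and SD. Niche genes are highest in the PEAR1-DBOX line (111 to 134 CPM), G2 and M genes in the CVP2-DBOX line, and late sieve element genes in the NAC73 line.

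The comparison of the PEAR1-DBOX line with the PEAR1 line changes the reporter but not the promoter. PLT1, PLT2, PLT3 and BBM were higher in both PEAR1-DBOX libraries than in any PEAR1 library, with PLT1 at 47.4 ± 16.2 against 12.1 ± 1.26 CPM and BBM at 67.6 ± 28.3 against 23.2 ± 5.65 (SD, n = 2 and 4). How many of all genes separate in this way was not counted. None of the 7 passed edgeR's test, where 2.29% of all genes tested did, and 2 did so at an unadjusted p under 0.05. This test takes its spread from all 6 lines. With only the 2 lines in the fit, 4 members passed, 3 higher and 1 lower, where 1333 of 24561 genes were called higher and 1086 lower. By other tools 0 (DESeq2) and 2 (limma voom) were called. Among all genes DESeq2 called 712 of 24959 higher and 1172 lower, and voom 1105 of 26074 higher and 366 lower. The log2 differences were 1.96 ± 1.18 for PLT1, 1.59 ± 1.11 for PLT2, 1.01 ± 0.45 for PLT3 and 1.54 ± 1.25 for BBM (SE). PLT7 had a single read in the PEAR1-DBOX line, against 0.769 ± 0.47 CPM in the PEAR1 line.

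In the same comparison 8 of 11 G2 and M genes passed and were higher in the PEAR1-DBOX line, CYCB1;3 for one by 2.64 ± 0.31 (log2, SE; adjusted p = 0.000419, edgeR). Their summed level was 1715 and 3580 CPM in the PEAR1-DBOX libraries and 327 to 464 in the PEAR1 libraries, and the higher of the 2 was replicate 3, which also had the higher PLT1, PLT2, PLT3, BBM and ANT. Of the RGF peptide genes none of 8 passed edgeR's test (2 at an unadjusted p under 0.05, 0 by DESeq2 and 3 by voom), with a median log2 difference of 1.16 against −0.09 for all genes. Markers of pericycle and lateral root founder cells, where PLT3, PLT5 and PLT7 are known to act, summed to 206 to 344 CPM in the PEAR1 line, 19.5 to 94.2 in the PEAR1-DBOX line and 4.66 to 9.05 in the CVP2-DBOX line. None of these 8 genes passed edgeR's test between the PEAR1-DBOX and PEAR1 lines (2 at an unadjusted p under 0.05, 2 by DESeq2 and 1 by voom). Epidermis and root hair markers summed to 6.52 to 75.2 CPM in the PEAR1 libraries and to 2.14 and 2.44 in the PEAR1-DBOX libraries, where RHD6 and RSL4 had no read, with a median log2 difference of −5.86 and 0 of 8 passing edgeR's test (4 at an unadjusted p under 0.05, 3 by DESeq2 and 0 by voom). Endodermis markers summed to 6.82 to 48.6 CPM against 1.72 and 7.18, with a median of −2.24 and 0 of 7 passing edgeR's test (1 at an unadjusted p under 0.05, 1 by DESeq2 and 0 by voom). Their part in the levels of the members was not tested.

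Between the DBOX lines, with the CVP2 and the PEAR1 promoter, no member passed edgeR's test, where 12% of all genes tested did. None had an unadjusted p under 0.05, 0 were called by DESeq2 and 1 by voom. With only the 2 lines in the fit, 3 members were called, all lower, where 1842 of 22884 genes were called higher and 2269 lower. Among all genes DESeq2 called 1537 of 23696 higher and 2736 lower, and voom 791 of 26074 higher and 2013 lower. PLT1, PLT2, BBM and PLT5 were lower in every CVP2-DBOX library than in either PEAR1-DBOX library, PLT1 by 2.38 ± 1.19 on the log2 scale (SE). The share of all genes that separate these lines was not counted. PLT3 overlapped between the lines, at 125 ± 17.5 against 148 ± 65.9 CPM (SD). WOX5, the homeobox gene of the quiescent centre, was lower in the CVP2-DBOX line by 4.42 ± 1.14 (0.736 against 15.8 CPM; adjusted p = 0.0215, edgeR), the stem cell niche gene that passed of 9 tested. RGF8 fell by 3.06 ± 0.95 (adjusted p = 0.0417, edgeR), the RGF gene that passed of 8 tested.

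**Figure D4:**
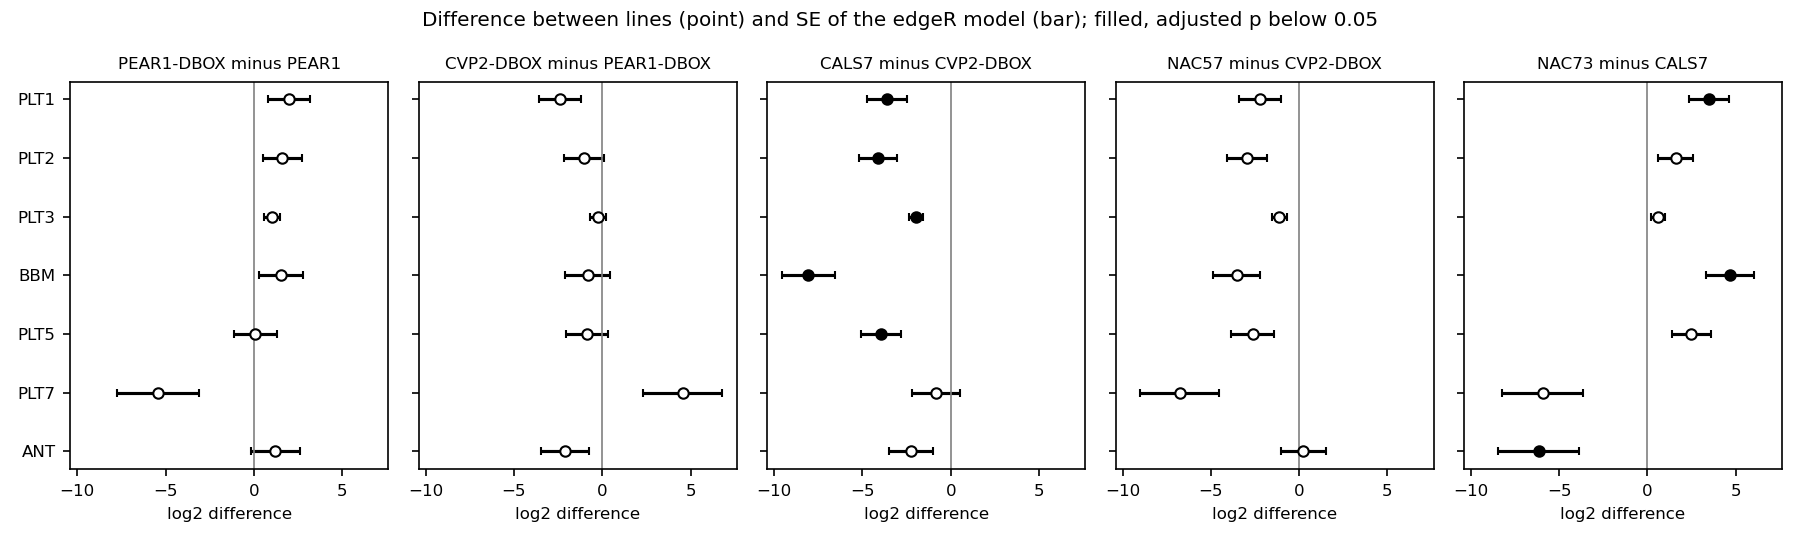
Log2 difference between lines (x axis) for the 7 genes in 5 comparisons; points are estimates of the edgeR model, bars their SE and filled points an adjusted p below 0.05. All 5 filled points of CALS7 minus CVP2-DBOX lie below 0, and no point is filled in 3 of the comparisons.

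No member passed edgeR's test between the CVP2-DBOX and PEAR1 lines and none had an unadjusted p under 0.05, where 27.4% of all genes tested passed. The ratio of 2 genes' reads within a library does not depend on scaling between libraries, and the 6 ratios among PLT1, PLT2, PLT3 and BBM were chosen after their values had been seen, so they are a description with no test. The ratio of PLT1 to PLT2 was 0.477 to 0.723 over the PEAR1 libraries and 0.205 to 0.422 over the CVP2-DBOX libraries, 2.01-fold lower on average. The ratio of PLT1 to BBM was 0.408 to 0.742 against 0.185 to 0.334, 2.28-fold lower, and that of PLT1 to PLT3 0.131 to 0.221 against 0.0506 to 0.0856, 2.33-fold lower. Relative to each of the other 3 genes, PLT1 was lower in every CVP2-DBOX library than in any PEAR1 library.

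The other 3 ratios overlapped between the lines. The mean log2 ratio of PLT2 to BBM differed by −0.18, that of PLT2 to PLT3 by −0.21 and that of PLT3 to BBM by 0.03. The ratio of PLT1 to PLT2 in the PEAR1-DBOX libraries was 0.736 and 0.729, above all CVP2-DBOX libraries.

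**Figure D5:**
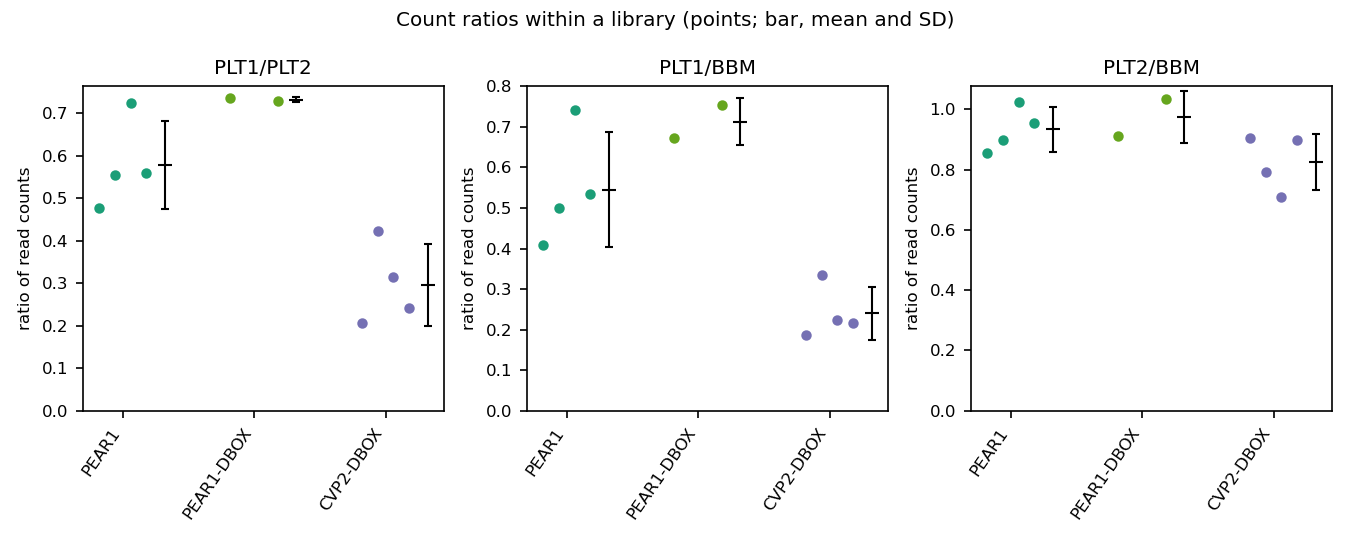
Ratio of read counts within a library (y axis) for 3 pairs of genes in the PEAR1, PEAR1-DBOX and CVP2-DBOX lines; points are libraries and black bars the mean and SD. PLT1 relative to PLT2 and to BBM is lower in all 4 CVP2-DBOX libraries than in any PEAR1 library, and PLT2 relative to BBM overlaps.

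In the line labelled NAC57 the mean levels of PLT1, PLT2, PLT3, BBM and PLT5 lay between those of the CVP2-DBOX and CALS7 lines. ANT, at 1.57 ± 1.35 CPM (SD), was above both, by 0.25 on the log2 scale against the CVP2-DBOX line, which turned to −0.45 without NAC57 replicate 2, and PLT7 had no read. PLT1, PLT2, PLT3, BBM and PLT5 were lower in all 3 of its libraries than in any CVP2-DBOX library, PLT3 at 57.4 ± 4.63 against 125 ± 17.5 CPM and PLT2 at 4.12 ± 1.60 against 31.4 ± 3.42 (SD). The share of all genes that separate in this way was not counted. None of the 7 passed edgeR's test, where 19.5% of all genes tested did. An unadjusted p under 0.05 was found for 5, and 4 were called by DESeq2 and 6 by voom, all lower. Among all genes DESeq2 called 2387 of 27486 higher and 4930 lower, and voom 5036 of 26074 higher and 7232 lower. The log2 differences were −3.54 ± 1.33 for BBM (adjusted p = 0.0688, edgeR), −2.93 ± 1.14 for PLT2 (0.0778) and −1.12 ± 0.42 for PLT3 (0.0684). RBK1 was near 0 in both lines. Of 11 G2 and M genes 7 were lower in the line labelled NAC57, and 1 of 10 auxin genes, the efflux carrier PIN4, fell by 3.91 ± 1.20 (adjusted p = 0.0307, edgeR). Of 9 stem cell niche genes 2, BRAVO and WOX5, were lower and none higher, WOX5 with no read.

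In the NAC73 line the members varied widely between libraries. Compared with the CALS7 line, 3 of 7 passed edgeR's test, where 35.9% of all genes tested did: PLT1 and BBM were called higher and ANT lower. DESeq2 called 1 member higher and 2 lower. With voom, with the replicate block and with only the 2 lines in the fit, 0 members were called. Among all genes DESeq2 called 3710 of 27486 higher and 6922 lower, and voom 3973 of 26074 higher and 4730 lower. PLT1 was higher by 3.47 ± 1.13 (log2, SE; adjusted p = 0.025, edgeR), but 1 NAC73 library had no read and the lines overlapped, and without CALS7 replicate 4 the difference was 3.07 and the adjusted p 0.0524 (edgeR). BBM was higher by 4.68 ± 1.37 (adjusted p = 0.0145, edgeR), with 12.8 CPM in NAC73 replicate 4 and no read in replicates 2 and 3, and without replicate 4 the difference was 2.20 and the adjusted p 0.149 (edgeR). By line means ANT was at least 5.97-fold lower in the NAC73 line, against 3 reads over its 4 libraries, a bound that covers counting error only. The call held without CALS7 replicate 3 and ended without any other single library of the 2 lines (adjusted p = 0.0548 to 0.0986, edgeR).

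NAC73 replicates 1 and 4 held 72.8 and 78.6 CPM of PLT3 and 9.96 and 10.8 of PLT2, and replicates 2 and 3 held 20.6 and 17.6 of PLT3 and 1.38 and 0 of PLT2. The stem cell niche list summed to 26.5 and 33.9 CPM in replicates 1 and 4 and to 14.9 and 14.7 in replicates 2 and 3, with WOX5 and CLE40 at 0 in all 4. Root cap markers summed to 54.6 and 26.4 CPM in replicates 1 and 4 and to 8.37 and 0.678 in replicates 2 and 3, and pericycle and lateral root founder markers to 6.52 and 16.7 against 1.38 and 0.0616. Late sieve element markers summed to 15094 and 23124 CPM in replicates 1 and 4 and to 35160 and 28833 in replicates 2 and 3. The part of these differences in the levels of the members was not tested. RBK1 was at 135, 271, 236 and 210 CPM in replicates 1, 2, 3 and 4, and the share of its reads in the PLT3 values was not tested. Of 8 RGF genes 1 was higher and 1 lower than in the CALS7 line. RGF4 was the higher one, at 5.22 against 0.801 CPM, by 2.71 ± 0.63 (log2, SE; adjusted p = 0.00377, edgeR).

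The remaining pairs of lines share lines with the comparisons above. Against the PEAR1 line, the same 5 genes (PLT1, PLT2, PLT3, BBM and PLT5) were lower in the CALS7 line, beside 37.9% of all genes tested called in either direction, PLT3 by 1.22 ± 0.38 on the log2 scale (adjusted p = 0.0176, edgeR). Against the PEAR1-DBOX line these 5 and ANT were lower in the CALS7 line, beside 35.8% of all genes. The line labelled NAC57 had 2 members lower than the PEAR1 line, PLT5 and PLT7, beside 34.7% of all genes, and 3 lower than the PEAR1-DBOX line, PLT1, PLT2 and BBM, beside 18%. Between the CALS7 line and the line labelled NAC57 only BBM (lower in the CALS7 line) and PLT7 (higher, 0.234 ± 0.288 CPM against no read) passed edgeR's test, beside 49.7% of all genes.

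In the NAC73 line PLT2, PLT3, BBM, PLT7 and ANT were lower than in the CVP2-DBOX line, beside 56.6% of all genes tested called in either direction. PLT1 was not among them, at 8.35 ± 5.79 against 9.07 ± 2.19 CPM (SD, n = 4 each). Against the PEAR1-DBOX line 4 members were lower in the NAC73 line (PLT2, PLT3, BBM and ANT), beside 51.3% of all genes, and against the PEAR1 line 2, PLT7 and ANT, beside 61.5%. By line means and against 3 reads over the NAC73 libraries, ANT was at least 53.0-fold lower than in the PEAR1 line. It was at least 33.8-fold lower than in the line labelled NAC57, where it was the 1 member that passed beside 37.3% of all genes. Both bounds cover counting error only, not the spread between libraries, and NAC57 replicate 4 held 0.111 CPM of ANT. The shares of members called in the NAC73 line's comparisons with the PEAR1 line and the line labelled NAC57 were below the share of all genes. These pairs were not refitted under the alternatives.

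Over the 6 line means of log2 CPM, each member's nearest genes were found by the root mean square difference after centring, as a description with no test, among 6313 or 6314 genes with a symbol that reached 10 CPM in their highest line. PLT1 was nearest to LAX2, an auxin influx carrier (0.61), PLT5 (0.64) and RGF4 (0.68). PLT2 was nearest to HDG4, a homeodomain factor (0.37), PIN4 (0.38) and BIR6, a protein of mitochondrial RNA processing (0.46), and PLT5 to EXL3 (0.41), LAX2 (0.52) and PIN4 (0.53). BBM had more distant neighbours, ENODL13 (0.74), TLP8 (0.77) and IQD8 (0.94).

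PLT3 had the closest neighbours, eIF6A, a factor of ribosome assembly (0.11), PTAC17 (0.16) and ZAT, a vacuolar zinc transporter also called MTP1 (0.16). ANT was nearest to BRL2, a vascular receptor kinase (0.38), PDC2, a pyruvate decarboxylase (0.39), and ATK4, a kinesin (0.44). PLT7 was nearest to TIP4;1, an aquaporin (0.64), SCPL11 (0.67) and HAI1, a protein phosphatase (0.73). These distances are over 6 line means that share the libraries and their scaling. They are not scaled by the range of a profile. After centring, that range was −1.11 to 1.09 for PLT3 and −5.42 to 3.78 for BBM. Where PLT7 (line labelled NAC57 and NAC73 line) or ANT (NAC73 line) had no read, the line mean is set by a small count added before the logarithm.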

How the data were processed

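RNA-seq was measured in 21 libraries of sorted root protoplasts from 6 reporter lines, made with a low-input cDNA kit and 18 PCR cycles from RNA of integrity 6.3 or above and read as single 50-base reads, per the labels' protocols. The deposited files hold raw read counts per gene, not normalized. Per the submitters' processing notes the authors used Bowtie2, featureCounts, edgeR and the TAIR10 build; no version is named, and the strand setting is not given there.

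Counts from all libraries entered 1 edgeR 4.0.16 model (R 4.3.3) with a term per line: TMM scaling, filterByExpr with a minimum count of 10 (26074 of 33602 genes), robust quasi-likelihood F tests of the 15 pairs of lines, and Benjamini-Hochberg adjustment over all genes tested at 0.05. CPM values use TMM library sizes. CPM per kb uses the exon length of TAIR10.1, whose RefSeq table also gave symbols. The floor is 3 reads over a line's libraries. It covers counting error only, since amplified reads that carry no molecular identifier are not independent molecules. The fit was tested on simulated data.

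DESeq2 1.42.0, limma 3.58.1 (voom with sample weights), other scaling and filters, fits of the compared lines alone, a replicate block and left-out libraries were alternatives. Samples with the same replicate number did not deviate together. The members, 18 gene lists and tests were chosen with earlier results of these data known. Named genes were the members, AT1G72570, the reporters' genes, up to 4 called genes per list and comparison with the smallest adjusted p, list genes at 0, and the 3 nearest profiles per member; RBK1 was added after its overlap with PLT3 was seen. Of 157 listed loci 13 were left out because the reference gave them no symbol or another one. The genes whose promoters are named PEAR1 and S32 were among them. A result on 1 listed gene is not reported here.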

Additional observations from a re-analysis of the deposited data

Results flagged for a closer look

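In 4 of 29 groups of 4 libraries, 1 library stood far from the others of its line (Dixon's criterion; chance flags about 1 in 20 groups). BBM was at 0.523 CPM in CALS7 replicate 3 and had no read in the other CALS7 libraries. BBM was at 12.8 CPM in NAC73 replicate 4, and the next library of that line held 1.85 CPM. PLT5 was at 19.1 CPM in PEAR1 replicate 1, against 7.03 to 7.39 CPM in the other 3 libraries. PLT5 was at 2.86 CPM in CVP2-DBOX replicate 4, against 6.68 to 6.96 CPM in the other 3.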

How the results depend on the processing

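Of 460 values of single members under the alternatives, 390 kept their direction and side of the threshold, 39 passed the test in addition, 18 no longer passed and 13 changed sign, of which 0 passed the test. The 13 belong to 5 differences. For PEAR1-DBOX minus PEAR1, PLT5 went from 0.09 to −0.0160 with RLE scaling, −0.0163 with DESeq2, −0.26 with PEAR1 replicates 1 and 3 only and to between −0.13 and 0.58 with a library left out, and ANT from 1.21 to between −0.39 and 1.95 with a library left out. PLT3 went from −0.25 to between −0.64 and 0.30 in CVP2-DBOX minus PEAR1-DBOX and ANT from 0.25 to between −0.45 and 1.15 in NAC57 minus CVP2-DBOX with a library left out, and PLT3 from 0.59 to −0.22 with voom in NAC73 minus CALS7. In CALS7 minus CVP2-DBOX all 96 were kept. For PEAR1-DBOX minus PEAR1 the count of members called moved from 0 to 1 with the replicate block, 4 with only the 2 lines in the fit and 2 with voom. For CVP2-DBOX minus PEAR1-DBOX it moved from 0 to 3 with only the 2 lines and 1 with voom. For NAC57 minus CVP2-DBOX it moved from 0 to 2 with RLE scaling, 1 with the replicate block, 6 with only the 2 lines, 4 with DESeq2 and 6 with voom, and was 0 to 1 with a library left out. For NAC73 minus CALS7 it moved from 3 to 0 with the replicate block, with only the 2 lines and with voom, to 5 with NAC73 replicates 1 and 4 only (chosen from earlier results on these libraries, so that this count follows from the choice), and was 1 to 4 with a library left out. With only the 2 lines in the fit, 1333 of 24561 genes were called higher and 1086 lower in PEAR1-DBOX minus PEAR1. The same fit called 1842 of 22884 higher and 2269 lower in CVP2-DBOX minus PEAR1-DBOX. In NAC57 minus CVP2-DBOX 4398 of 20425 were called higher and 4936 lower. The cause of the moves in the member counts was not tested.

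The replicate numbers share only a number: deviations of same-numbered libraries had a median correlation of −0.0269, with 3 of 40 pairs over 0.1. RLE scaling moved the median log2 difference of all genes from 0.11 to 0.36 in CALS7 minus CVP2-DBOX, where 5186 genes were then called higher and 5307 lower (4418 and 6169 with TMM). It moved it from −0.26 to −0.44 in NAC57 minus CVP2-DBOX, with 1860 higher and 2732 lower (2851 and 2227 with TMM), from −0.09 to −0.21 in PEAR1-DBOX minus PEAR1, with 206 and 244 (366 and 231), and from −0.12 to −0.28 in NAC73 minus CALS7, with 3162 and 5951 (4077 and 5286). Depth limits PLT7 and ANT, which reached the filter's cutoff in 8 and 11 of 21 libraries, and PEAR1-DBOX has 2 libraries.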

Other observations

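In the CALS7 line 4 of 9 tested genes of the list of other AP2 family genes were higher than in the CVP2-DBOX line and none lower, a share near the 40.6% of all genes tested called in either direction. In the line labelled NAC57 4 of the 9 were lower than in the PEAR1 line and 3 lower than in the PEAR1-DBOX line, with none higher, beside 34.7% and 18% of all genes. In the CALS7 line, against the CVP2-DBOX line, AP2 rose by 0.97 ± 0.22, TOE1 by 1.23 ± 0.26, TOE3 by 4.95 ± 0.46 and SMZ by 1.74 ± 0.48 (log2, SE). Their adjusted p by edgeR's test was 0.00174, 0.000871, 1.13e-07 and 0.00695. These 4 are among the AP2 genes known as targets of miR172. The other 5 genes tested, TOE2 and SNZ among them, did not pass. TOE1, TOE3 and SMZ were lower in the CVP2-DBOX line than in the PEAR1-DBOX line, by 1.57 ± 0.30, 2.42 ± 0.47 and 3.32 ± 0.56. TOE1 rose further in the NAC73 line, by 0.86 ± 0.26 against the CALS7 line (adjusted p = 0.0167, edgeR).

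Of 5 embryo regulators, which BBM is known to activate, 3 were tested. Between the CALS7 and CVP2-DBOX lines 1 of them was called higher and none lower, beside 40.6% of all genes called in either direction. ABI3 rose in the CALS7 line from 0.237 to 11.3 CPM against the CVP2-DBOX line, by 5.55 ± 1.26 (adjusted p = 0.00186, edgeR). LEC1 had no read in the line labelled NAC57, the CALS7 line or the NAC73 line. FUS3 had none in the PEAR1-DBOX line, in the line labelled NAC57 or in the NAC73 line. ABI3 had none in the line labelled NAC57, and LEC2 none in the NAC73 line. A link between these levels and those of BBM was not tested.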
